A study of Drosophila melanogaster with 6 samples.

Results

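The genes described here are 9 transcription factor genes that prepattern the notum, the dorsal thorax of *Drosophila melanogaster*, and their signals were compared between 2 classes of sorted wing disc cells. They were chosen by symbol: the GATA factor gene *pnr* and its cofactor gene *ush*, the Iroquois genes *ara*, *caup* and *mirr*, the Bar genes *B-H1* and *B-H2*, and the Pax genes *eyg* and *toe*. Of these, 8 were found among the 10844 genes named in the platform annotation, with 1 probe set of 14 probe pairs each. No probe set carried the symbol *toe*, so that gene was not analysed here. Each sample came from about 200 wing discs of E(spl)m4-GFP larvae late in the third instar, in which green fluorescent protein (GFP) marks cells that use E(spl)m4 regulatory DNA. Discs of w1118 larvae set the fluorescence limit; every cell above it was collected as GFP-positive, and 100000 cells below it were collected as GFP-negative. Each class had 3 samples, each on 1 array, and each sample pooled many animals. Both classes carried the reporter, and discs were dissociated whole, so a sample mixes notum, hinge and wing pouch cells of its class.

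The notum prepattern is a set of broad, overlapping domains of transcription factors that act upstream of the small proneural clusters. Pannier works in the medial notum, where it binds regulatory DNA of the achaete-scute complex, and U-shaped binds Pannier and restrains it. Araucan and Caupolican, close homeodomain paralogs, activate *ac* and *sc* in the lateral notum and also along wing veins, the Bar proteins act at the anterior edge of the notum, and Eyegone subdivides the notum along its anterior-posterior axis. Each domain is therefore wider than the clusters that form inside it. In bulk samples such as these, fewer cells that express a gene and less RNA per cell cannot be told apart.

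Across the arrays, between 4321 and 5039 probe sets were called Present, with the highest numbers in GFP-negative replicates 1 and 2, and median signals ranged from 125.35 to 151.6 units. The reporter's own gene *E(spl)m4-BFM*, an antagonist of Notch ligand activity, had signals of 333.7, 326.9 and 48.0 in GFP-negative and 2127.6, 2340.7 and 2590.8 in GFP-positive samples (replicates 1, 2 and 3), which checks the sort. Of the disc epithelium markers, *crb* and *ap* were Present on all 6 arrays, while *shg* and *nub* were Present on no array. The samples numbered 1 were hybridised on an earlier day than the other 4, and the second principal component, with 26.9% of the variance, separated these days. Of 4943 probe sets tested (Present on at least 2 of 3 arrays of a class), 148 were called at a limma adjusted p under 0.05, of which 86 were lower and 62 higher in GFP-positive cells. With replicate number as a block 257 were called, all 148 among them. Without single arrays the count was 153, 69 or 98 (GFP-negative replicate 1, 2 or 3) and 78, 109 or 84 (GFP-positive replicate 1, 2 or 3).

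**Figure D1:**
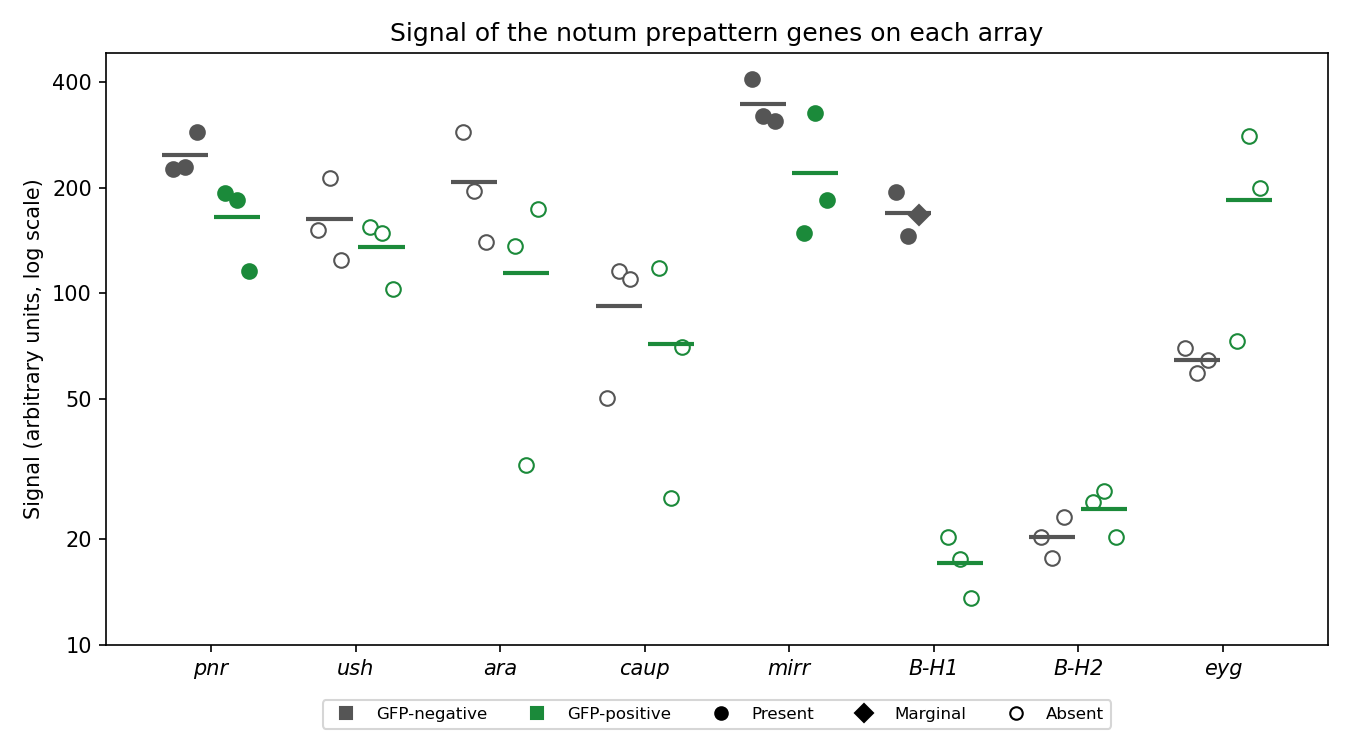
Signal in arbitrary units on a log axis for the 8 genes with a probe set, with 1 point per array, 3 arrays per class, and a horizontal line at each class mean; filled circles are Present, diamonds Marginal and open circles Absent. *B-H1* lies between 145.6 and 194.4 in GFP-negative and between 13.6 and 20.2 in GFP-positive samples, while *pnr* and *mirr* are the genes with filled points in every sample.

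*B-H1* was the one gene called among the 3 of the set that were tested. Its signals were 194.4, 145.6 and 166.8 in GFP-negative samples and 20.2, 17.5 and 13.6 in GFP-positive samples. All GFP-positive samples lay far below all GFP-negative ones, and the spread within each class was small beside the gap. *B-H1* encodes a homeodomain protein that is required with its neighbour for the anterior margin of the notum and for bristle subtype. The class means were 168.9 ± 24.5 and 17.1 ± 3.32 (SD, n = 3), and the log2 difference, GFP-positive minus GFP-negative, was -2.48 (SE 0.345, 95% interval -3.25 to -1.71, limma adjusted p = 0.00339). Because no GFP-positive array detected the gene, the fold is a bound set by detection, at least 3.80-fold lower. The values came from log2(signal + 16), and with a pseudocount of 64 the log2 difference was -1.52.

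The detection calls for *B-H1* followed the same split. GFP-negative replicates 1 and 2 were Present, with detection p-values of 0.0152 and 0.00928, and replicate 3 was Marginal at 0.0547. All GFP-positive samples were Absent, with detection p-values of 0.681, 0.802 and 0.901. The gene entered the test through the GFP-negative arrays alone, which favours genes that are lower in GFP-positive cells. Within each same-numbered pair of samples the log2 difference was -2.54, -2.27 and -2.63, and it was -2.54 in the earlier hybridization day and -2.45 in the later one. The array lots that held both classes gave -2.35 and -2.63, and the adjusted p was 0.00135 with day and 0.0136 with lot as a fixed block.

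*B-H2*, the adjacent paralog of *B-H1* on the X chromosome with 0 protein-coding genes between them in the Release 6 annotation, was not above background on any array. Its signals were 20.2, 17.6 and 23.1 in GFP-negative and 25.5, 27.3 and 20.2 in GFP-positive samples. The classes overlapped, every array called it Absent, and the detection p-values ran from 0.784 to 0.952. The drop seen for *B-H1* could therefore not be looked for in its partner, and no fold was formed.

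*pnr*, which encodes the GATA factor of the medial notum, was detected in both classes. Its signals were 226.6, 229.6 and 288.0 in GFP-negative and 193.2, 185.1 and 116.1 in GFP-positive samples. Every GFP-positive sample was below every GFP-negative one, but the gap between the nearest samples was narrow and GFP-positive replicate 3 was well below the other two. The means were 248 ± 34.6 and 165 ± 42.4 (SD, n = 3). The log2 difference of -0.57 (SE 0.280, 95% interval -1.19 to 0.05) did not pass (limma adjusted p = 0.411, or 0.358 with the replicate block). Without GFP-positive replicate 3 the log2 difference was -0.36. In same-numbered pairs it was -0.21, -0.29 and -1.20, so the third pair carried most of it. It was -0.21 in the earlier and -0.75 in the later hybridization day, and -0.22 and -1.20 within the lots that held both classes.

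*ush*, the gene for the FOG-type zinc finger cofactor that binds Pannier, was not detected, and came nearest to the limit in GFP-negative samples. Its signals were 152.1, 213.2 and 124.3 in GFP-negative and 155.0, 148.8 and 102.8 in GFP-positive samples, and the classes overlapped. All arrays called it Absent, yet its detection p-values were the lowest among the undetected genes of the set. They were 0.0701, 0.0701 and 0.0991 in GFP-negative and 0.165, 0.136 and 0.123 in GFP-positive samples, against a limit of 0.06 for a Marginal call. The detection p-values of the classes did not overlap, although the signals did.

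**Figure D2:**
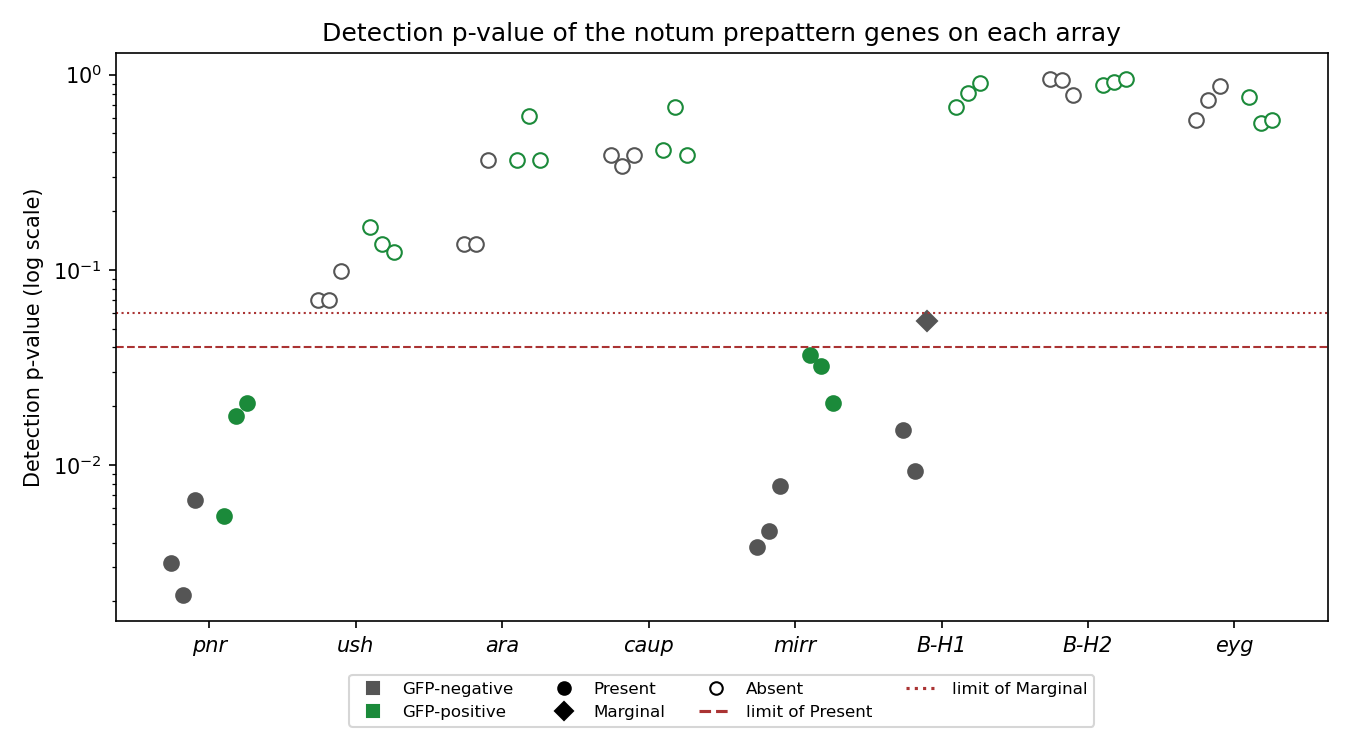
Deposited detection p-value on a log axis for the 8 genes with a probe set, 1 point per array, with symbols as in the plot of signals and lines at the limits of 0.04 for Present and 0.06 for Marginal. *pnr* and *mirr* lie below 0.04 on all 6 arrays, *B-H1* lies below 0.06 in GFP-negative samples alone, and *ush* runs from 0.0701 to 0.165.

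The Iroquois genes lie next to each other on chromosome arm 3L in the order *ara*, *caup*, *mirr*, with 0 protein-coding genes between neighbours in the Release 6 annotation, and they were not detected alike. *mirr*, whose homeodomain protein is also known from dorsal patterning of the eye, was Present on all 6 arrays. Its signals were 408.2, 319.9 and 310.8 in GFP-negative and 149.1, 325.9 and 185.0 in GFP-positive samples. GFP-positive replicate 2 sat among the GFP-negative samples, so the classes overlapped, while the other two GFP-positive samples were lower.

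The class means of *mirr* were 346 ± 53.8 and 220.0 ± 93.5 (SD, n = 3). The log2 difference of -0.68 (SE 0.305, 95% interval -1.36 to 0.00) did not pass (limma adjusted p = 0.358, or 0.252 with the replicate block). In same-numbered pairs the log2 difference of *mirr* was -1.36, 0.03 and -0.70, so 1 pair showed almost none. The samples of the earlier day gave -1.36 and the 4 arrays of the later day -0.34, and the lots with both classes gave -1.19 and -0.70. Its detection p-values were 0.00382, 0.00459 and 0.00783 in GFP-negative and 0.0368, 0.0320 and 0.0207 in GFP-positive samples. These did not overlap, and the GFP-positive values stood close to the limit of 0.04 for a Present call.

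*ara* and *caup*, whose proteins activate the proneural genes in the lateral notum, were Absent on every array. The signals of *ara* were 288.6, 195.7 and 140.5 in GFP-negative and 136.7, 32.4 and 173.7 in GFP-positive samples. The highest GFP-positive sample lay above the lowest GFP-negative one, and GFP-positive replicate 2 was far below the rest. The signals of *caup* were 50.5, 115.9 and 109.8 in GFP-negative and 118.1, 26.1 and 70.5 in GFP-positive samples, with full overlap. GFP-positive replicate 2 was the lowest sample for both genes, and it was the highest GFP-positive sample for *mirr*. Neither gene was tested and no fold was formed, since their signals were not distinguished from background.

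*eyg*, a Pax gene of the anterior notum that is also used in eye growth, had a brighter but undetected signal in GFP-positive cells. Its signals were 69.8, 59.3 and 64.7 in GFP-negative and 73.3, 280.4 and 199.6 in GFP-positive samples. The classes did not overlap, but GFP-positive replicate 1 was almost level with the GFP-negative samples while replicates 2 and 3 were well above. The means were 64.6 ± 5.25 and 184 ± 104 (SD, n = 3). All arrays called the probe set Absent, and the detection p-values of the brighter samples, 0.562 and 0.587, lay far above the limit of 0.06. It was not tested, and its paralog *toe*, the next protein-coding gene along 3L, was not analysed here.

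Read together, 3 of the 8 genes with a probe set passed the detection filter, beside 4943 of all 13966 probe sets. Limma called 1 lower (*B-H1*) and 0 higher, with *pnr* and *mirr* short of the threshold. The share of all tested probe sets called in either direction was 2.99%, with 1.74% lower and 1.25% higher in GFP-positive cells. With the replicate block the share called was 5.2%, and *B-H1* was again the one gene of the set called (adjusted p = 0.000893). With 3 tested genes, 1 call is a count too small to set the group apart from this background. The median log2 difference of the 3 was -0.68, beside -0.01 over all tested probe sets, and all 3 had a negative sign, as had 51.3% of tested probe sets. *B-H1* entered the test through the GFP-negative arrays alone, which favours a negative sign and classes without overlap, so counts of tested genes that include it depend on the filter. The classes did not overlap in signal for 2 of the 3 (*pnr* and *B-H1*), beside 20.8% of all tested probe sets, and for 3 of the 8 with *eyg* included, beside 16.6% of all probe sets with no filter. Detection p-values were higher in every GFP-positive sample than in any GFP-negative one for 3 of the 8 (*B-H1*, *mirr* and *ush*), beside 8.75% of all probe sets. No gene of the set showed the opposite order. The share over all probe sets was not counted for that order, so the split between the orders does not set the group apart. The 5 genes that were not tested were Absent on all 6 arrays, with signals between 17.6 and 288.6 units. Their absence from the calls therefore says nothing about their expression.

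**Figure D3:**
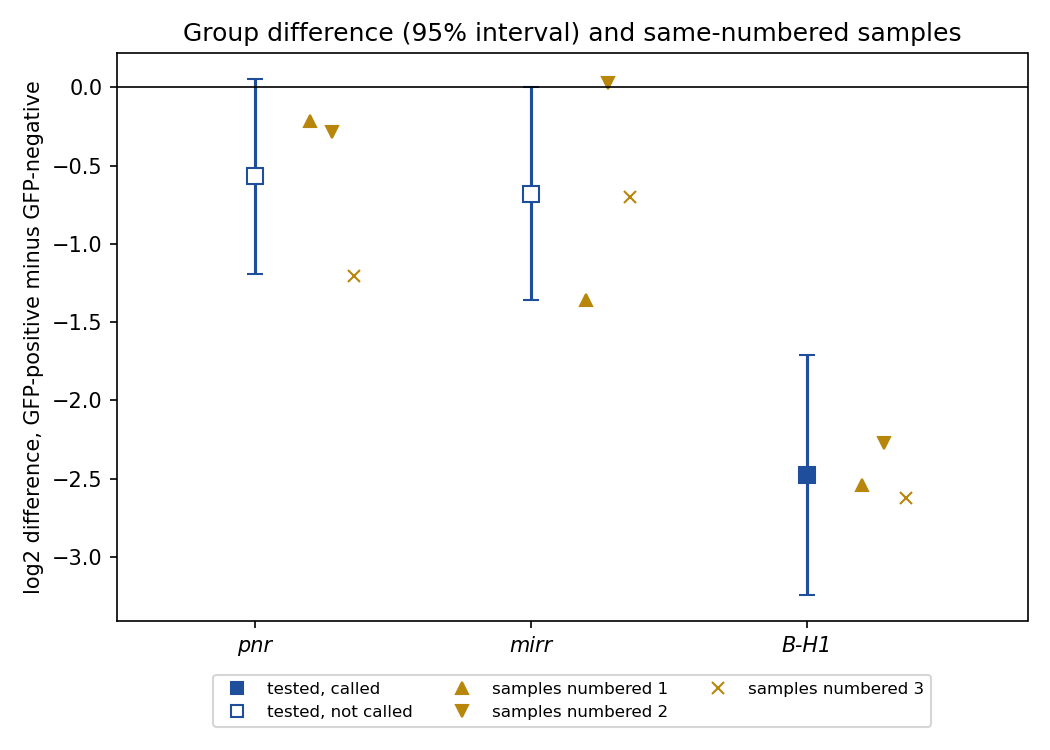
Log2 difference, GFP-positive minus GFP-negative, on the log2(signal + 16) scale for the 3 tested genes, with squares and bars for the limma estimate and its 95% interval over 3 arrays per class, and smaller symbols for each same-numbered pair of samples. *B-H1* lies between -2.27 and -2.63 in all 3 pairs, whereas the pairs of *mirr* run from -1.36 to 0.03 and those of *pnr* from -1.20 to -0.21.

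Among all other tested genes with a symbol, those whose centred profile over the 6 arrays lay nearest to that of *B-H1* were *egr*, *en* and *MFS14*. The measure was the mean absolute difference of centred log2 values, over 6 arrays and 4337 named probe sets. It was 0.20 log2 units for *egr*, the tumour necrosis factor gene of the fly, 0.23 for *en*, the selector gene of the posterior compartment, and 0.24 for the transporter gene *MFS14*. Their log2 differences between the classes were -2.62, -2.13 and -2.21, beside -2.48 for *B-H1*. The measure thus largely restates the class difference, and a near profile does not show shared regulation. *egr* had signals of 187.1, 213.2 and 217.6 in GFP-negative and 21.3, 17.7 and 21.6 in GFP-positive samples. It was Absent on every GFP-positive array, entered the test through the GFP-negative arrays alone as *B-H1* did, and was at least 4.57-fold lower in GFP-positive cells (limma adjusted p = 0.00165).

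Several markers of adult muscle precursors and genes of the posterior compartment were lower in GFP-positive samples, as *B-H1* was. Of the markers of adult muscle precursors, the myoblasts that lie beneath the notum, 7 of 9 were on the array and 5 were tested, with 4 lower (*Him*, *htl*, *SPARC* and *kon*), none higher and 1 that missed the threshold. Of the 4, *kon* was Present on all 6 arrays and the others in GFP-negative samples alone, so that those entered the test through that class. The marker that missed the threshold, *sns*, a gene of myoblast fusion, had the opposite sign. Its signals were 573.8, 398.1 and 623.7 in GFP-negative and 711.5, 718.2 and 855.6 in GFP-positive samples, with every array Present and no overlap of the classes (log2 difference 0.53, limma adjusted p = 0.360). The summed signal of all 7 ran from 3841.6 to 6868.0 in GFP-negative and from 1237.4 to 1409.0 in GFP-positive samples. That sum mixes genes of opposite sign and includes undetected ones, so it does not measure the share of myoblasts. *twi* and *zfh1*, which define these cells, were Present on no array and were not tested. The signals of *twi* were 546.8, 603.9 and 522.6 in GFP-negative and 55.4, 66.7 and 31.9 in GFP-positive samples. Those of *zfh1* were 256.4, 348.2 and 331.4 in GFP-negative and 57.6, 112.1 and 42.4 in GFP-positive samples. For both genes the classes did not overlap. Of the posterior compartment genes, *en* had signals of 3444.7, 2835.3 and 2741.9 in GFP-negative and 768.5, 836.3 and 469.0 in GFP-positive samples. The part that myoblasts or compartment makeup play in the lower *B-H1* signal was not tested.

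No tracheal marker (*btl*, *vvl*, *kni*) was Present on any array, and of 5 hemocyte markers on the array 4 were Present on none. Among 3 tested glial markers limma called 0, and 1 reached an unadjusted p under 0.05.

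The rest of the network around the prepattern was taken from lists that group its partners, inputs and outputs. Of 20 thoracic partners and regulators, 17 were on the array and 6 were tested, none of them called by limma, while 2 reached an unadjusted p under 0.05, as did 14.0% of all tested probe sets. Their median log2 difference was -0.20, with a negative sign for 5 of the 6. Among them *tup*, a LIM-homeodomain selector of the notum, had signals of 1196.9, 763.3 and 858.0 in GFP-negative and 719.5, 646.3 and 498.0 in GFP-positive samples. The classes did not overlap, but the log2 difference of -0.57 (limma adjusted p = 0.330) did not pass. *Ssdp*, the brightest gene of the list, had a log2 difference of 0.13 (adjusted p = 0.910). *Chi*, the adaptor gene whose protein joins Pannier to proneural proteins at the achaete-scute enhancer, had signals from 1165.1 to 1455.7 yet was Absent on every array.

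Signalling pathways that set the prepattern domains were listed next. Of 14 genes of the EGF receptor, Dpp and JAK/STAT inputs, 9 were on the array and 6 were tested, with 0 passing in limma, 1 at an unadjusted p under 0.05, and a median log2 difference of -0.32. *Stat92E*, the transcription factor of the JAK/STAT pathway, had signals of 4001.8, 2721.7 and 2424.2 in GFP-negative and 1593.8, 2392.6 and 1620.7 in GFP-positive samples. Its log2 difference was -0.69 (limma adjusted p = 0.260). *Egfr*, the receptor gene of the EGF pathway, had -0.33 (adjusted p = 0.588) and the JAK/STAT receptor gene *dome* -0.47 (adjusted p = 0.427). Of the 6 tested, 4 had a negative sign. *sty* of the same list had signals of 663.7, 958.1 and 1227.4 in GFP-negative and 1432.5, 2061.8 and 1669.4 in GFP-positive samples. Its classes did not overlap, but 1 array alone called *sty* Present and it was not tested.

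**Figure D4:**
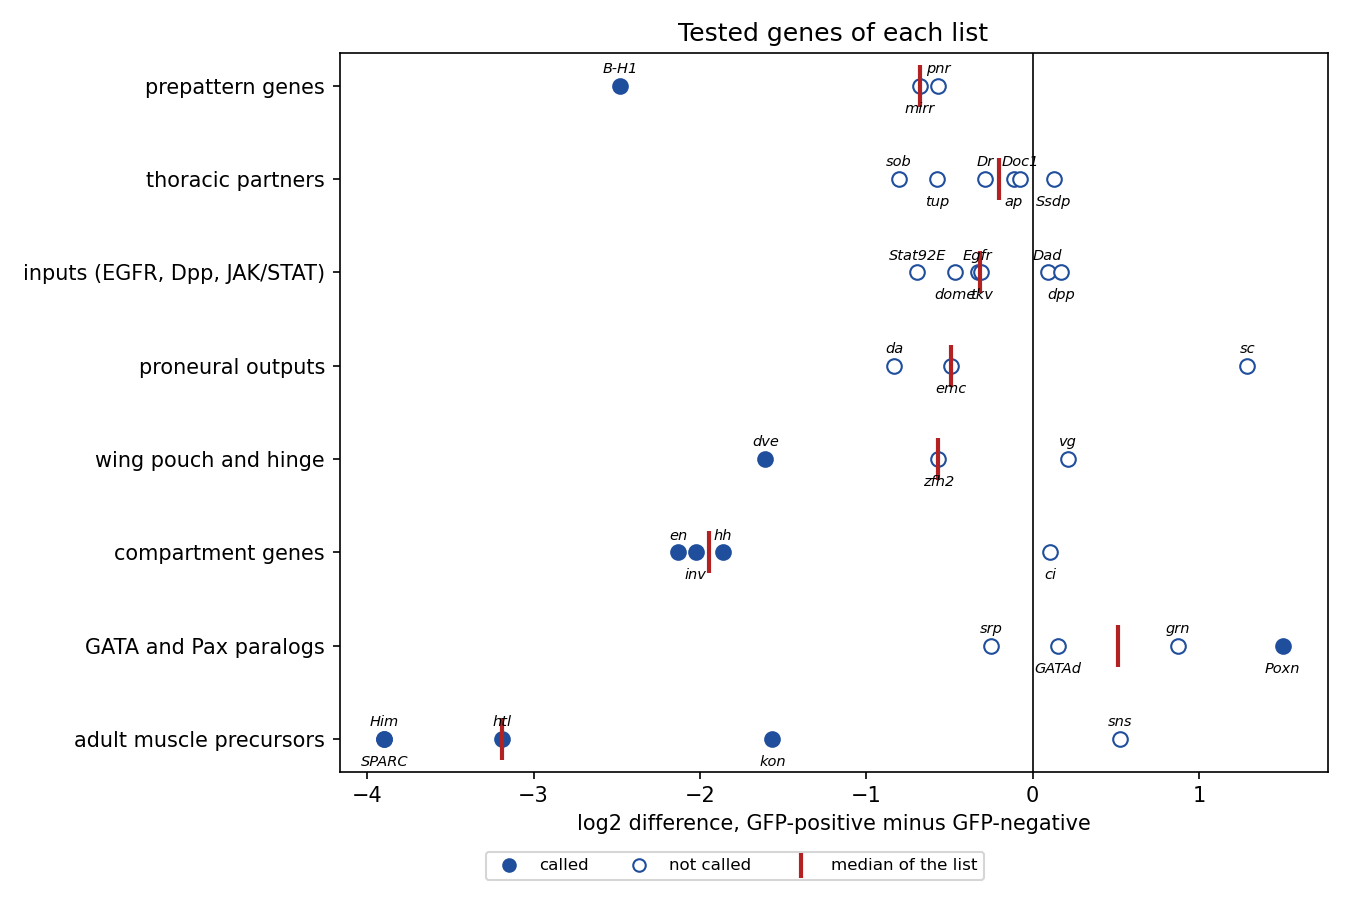
Log2 difference, GFP-positive minus GFP-negative, of the tested genes of each list, with filled points for genes called at a limma adjusted p under 0.05, open points for those not called, and a red line at the median of the list. *B-H1* at -2.48 stands by itself among the prepattern genes, with *mirr* at -0.68 and *pnr* at -0.57, while 3 of the 4 tested compartment genes and 4 of the 5 tested myoblast markers are called lower.

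The outputs of the prepattern are the proneural genes, which Pannier and the Iroquois proteins activate. Of 8 such genes and their regulators, 7 were on the array and 3 were tested, namely *sc* and the regulators *emc* and *da*. Limma called 0 of them, and 3 had an unadjusted p under 0.05. The median log2 difference of -0.49 was the value of *emc*, so it does not describe the proneural genes. The 1 proneural gene tested, *sc*, had the opposite sign. *sc* had signals of 142.7, 309.7 and 262.6 in GFP-negative and 898.6, 513.5 and 419.0 in GFP-positive samples, and its log2 difference of 1.29 was called with the replicate block alone (limma adjusted p = 0.0926 without and 0.0383 with it). *sc* was Present on 3 GFP-positive arrays and 1 GFP-negative array, so it entered the test through the class in which it is higher. In the arrays of the later day its log2 difference was 0.67 (limma adjusted p = 0.365). *ac* had signals of 7.4, 101.3 and 19.3 in GFP-negative and 168.6, 174.2 and 174.0 in GFP-positive samples, but 1 array alone called it Present and it was not tested. The signals of *sc* and *ac* were thus higher in each GFP-positive sample than in any GFP-negative one, the opposite order to *pnr*. *emc*, which encodes an inhibitor of proneural proteins, had a log2 difference of -0.49 (adjusted p = 0.319), and *da*, whose protein pairs with them, -0.83 (adjusted p = 0.145).

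Genes that mark other regions of the disc give the setting for the notum genes. Of 8 wing pouch and hinge regulators 7 were on the array and 3 were tested, and 1 fell, the homeobox gene *dve* (limma adjusted p = 0.00573). Its signals were 643.1, 457.6 and 444.5 in GFP-negative and 164.1, 167.0 and 138.6 in GFP-positive samples. In the 4 arrays of the later day its adjusted p was 0.0509. *vg*, the brightest gene of the list, had a log2 difference of 0.21 (limma adjusted p = 0.793). All 5 compartment genes were on the array and 4 were tested, of which *en*, *inv* and *hh* fell, with a median log2 difference of -1.94 for the list. The anterior gene *ci* had 0.11 (adjusted p = 0.880). *inv* and *hh* were Present on the GFP-negative arrays alone and entered the test through them. The call of *hh* (adjusted p = 0.0334) was lost in 9 of 17 alternatives, among them the omission of any 1 array.

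Other GATA and Pax genes of the fly were listed beside the members. Of 12 such genes, all on the array, 4 were tested. Limma called 1 higher and 0 lower, and the other 3 missed the threshold. The 1 was *Poxn*, a Pax gene that specifies sense organs with several neurons, with signals of 191.3, 98.6 and 182.3 in GFP-negative and 485.1, 554.5 and 359.3 in GFP-positive samples. All GFP-positive samples were above all GFP-negative ones, and the log2 difference was 1.50 (SE 0.302, limma adjusted p = 0.0247). *Poxn* was Present on the GFP-positive arrays alone, and so entered the test through the class in which it is higher. The call was lost in 7 of 17 alternatives. The adjusted p was 0.0969 with no filter, 0.0939 with array lot as a fixed block and 0.0799 in the arrays of the later day. It was 0.107 without GFP-negative replicate 2, and 0.110, 0.0899 and 0.0508 without GFP-positive replicate 1, 2 or 3. The GATA gene *grn* had signals of 259.6, 729.5 and 790.9 in GFP-negative and 843.7, 1703.5 and 674.6 in GFP-positive samples, with overlap (log2 0.87, adjusted p = 0.418).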

How the data were processed

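RNA of 3 GFP-positive and 3 GFP-negative samples, grouped by title, was hybridised to 1 array each. Per the file headers, the authors' intensity values are Signals from the statistical algorithm of Affymetrix, scaled on each array to a target of 500. From the same algorithm come deposited detection p-values, which give the calls through limits of 0.04 (Present) and 0.06 (Marginal) per the file headers, which held for all 14010 probe sets of each array. How RNA was labelled is not given in the sources used here. Nothing states that replicates were dissected separately, so p-values reflect the spread of these samples only, which may be technical, and 3 arrays per class limit the precision.

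Gene symbols came from the platform annotation, updated by Entrez number with a RefSeq table (Release 6), and 12443 probe sets had 1 symbol, 327 several and 1196 none. The series table equalled the array files within 0.051 units on all probe sets. The fit used log2(signal + 16) with limma 3.58.1 in R 4.3.3 (lmFit, eBayes with intensity trend, two-sided, Benjamini-Hochberg over 4943 probe sets) and was tested on simulated data. Where no array of the dimmer class was Present, the fold bound raises each dim signal to at least that array's lowest Present signal (29.4 to 36.8 units) before class means of log2 values are compared. No fold was formed for genes Absent on all arrays.

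The members and lists were chosen with earlier results of these data known. The text names all members, called genes of the other lists with up to 4 bright ones (brightest probe set per gene), and the 3 profiles nearest to a called member. Deviations from class means correlated at 0.40, 0.10 and 0.12 between same-numbered samples, and replicate number was also fitted as a block. Between samples of unlike number the correlations ran from -0.35 to 0.22, the highest for GFP-negative replicate 2 with GFP-positive replicate 3. The samples numbered 1, with 0.40, shared the earlier hybridization day, so pairing by number and day cannot be told apart there. Other alternatives were the pseudocount, filter, scaling, trend, hybridization day, array lot and omission of each array.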

Additional observations from a re-analysis of the deposited data

How the results depend on the processing

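The call of *B-H1* was made in all 17 alternatives that tested it (log2 difference -3.24 to -1.52, limma adjusted p 0.00025 to 0.0358), and leaving out single arrays gave -2.57 to -2.38. Among probe sets Present on all 6 arrays it was not tested, so 0 members were called there. *mirr* (log2 difference -0.98 to -0.34, adjusted p 0.124 to 0.745) and *pnr* (-0.75 to -0.36, adjusted p 0.265 to 0.682) kept their negative sign and passed in none of 18 alternatives. Array lot as a fixed block was an alternative chosen after seeing the data, and it gave *mirr* -0.98 and *pnr* -0.64. The number of probe sets called was 148, and it was 257 with the replicate block, 229 with hybridization day as a block, 97 with no filter, 50 among probe sets Present on all 6 arrays, 76 in the arrays of day 2, and 69 to 153 when single arrays were left out. The cause of these changes was not tested, except that the stricter filter tests 3567 probe sets and day 2 holds 4 arrays. The replicate block changed no call of a prepattern gene. Median scaling moved the median log2 difference of tested probe sets from -0.01 to -0.11 and the calls from 62 higher and 86 lower to 55 higher and 118 lower, and *B-H1* stood at -2.58 under it. Signal over background limits the set, since 5 of its 8 probe sets were detected on no array. The set is not unusual in this, since 4943 of all 13966 probe sets passed the filter, beside 3 of its 8.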

Other observations

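Some genes of the thoracic list had classes that did not overlap although limma made no call or the gene did not pass the filter on Present calls and was left out of the test; they were picked after their values were seen. *sr*, which encodes a transcription factor of tendon precursors on the notum, had signals of 253.2, 252.0 and 243.2 in GFP-negative and 57.9, 110.4 and 19.4 in GFP-positive samples, with every array Absent. *salr*, a spalt zinc finger gene, had the opposite order, with 156.2, 72.9 and 239.9 in GFP-negative and 523.7, 388.7 and 250.8 in GFP-positive samples, again Absent on every array. *sob*, an odd-skipped family gene, was Present on all GFP-negative arrays and 1 GFP-positive array, with signals of 696.6, 599.7 and 808.0 against 346.3, 457.3 and 380.8 (log2 difference -0.80, limma adjusted p = 0.103). Classes did not overlap in 16.6% of all probe sets and in 20.8% of the tested ones, which include *sob*. How many genes of the thoracic list had no overlap was not counted.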
